A study of Mus musculus with 29 samples.

Results

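Growth hormone acts on the liver through its receptor, GHR, and the kinase JAK2, which phosphorylates the transcription factors STAT5A and STAT5B. Activated STAT5 switches on the growth factor gene Igf1, its carrier Igfals, and the feedback inhibitors Cish, Socs2 and Socs3, so that transcripts of Cish and Socs2 are commonly read as recent receptor activity. Pituitary growth hormone is released in pulses in males and more evenly in females, and much of the sex difference in mouse liver, including the repressors BCL6 and CUX2, follows from this.

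The genes described are 10 of the 55421 genes in the count table, chosen by symbol: the inhibitors Cish, Socs2 and Socs3, the receptor Ghr, the transcription factors Stat5a and Stat5b, the secreted products Igf1 and Igfals, and the repressors Bcl6 and Cux2. All 10 were found and all 10 passed the filter on low counts in every comparison. Cish was chosen because it stood out between old HDM201 males and old vehicle males, so the values of that contrast, and those of its difference from the females, are a description with no test.

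RNA of the whole liver was sequenced in bulk from 29 mice of 6 groups, and the counts of 27 were used. HDM201 is an inhibitor that keeps MDM2 from degrading p53. Old mice were C57BL/6J, of 20 months in females and 24 months in males per the labels, and received HDM201 (10 mg/kg) or vehicle by daily oral gavage for 14 days. Young mice were 5 months old, were labelled C57BL6/N and received vehicle, so age and substrain cannot be told apart, and the old sexes also differ in age. Counts were used for 5 young vehicle, 4 old vehicle and 5 old HDM201 females, and for 4, 4 and 5 males of the same groups. Old vehicle male 1 and young vehicle male 5 had only FPKM (fragments scaled by transcript length and library size), and the methods mention a young male left out for a wound without saying which.

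Depth ranged from 16485900 to 23570458 counts per mouse. Transcripts of Xist and Ddx3y matched the labelled sex in all 27 mice, and each of the 8 hepatocyte markers, Alb and Apoa1 among them, was detected in every group. The summed level of those markers ran from 77100 to 159700 CPM (counts scaled to the total of each mouse) over all mice. In whole liver, fewer cells of a type and less RNA per cell cannot be told apart.

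The short sequences below are shown because STAT5 binds the palindrome TTCNNNGAA, which reads the same on both strands, and the promoters of the 10 genes differ in it. RefSeq windows on GRCm38.p6, from 250 bases before to 50 after a start site, were held for 9 of the 10 genes (not Socs2). The motif stood in the windows of Cish, Socs3, Igfals and Bcl6, and no match was found in those of Ghr, Stat5a, Stat5b, Igf1 and Cux2. Capitals mark the motif.
Cish, chr9:107296634-107296683, plus strand: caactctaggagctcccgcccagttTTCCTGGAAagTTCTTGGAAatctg
Bcl6, chr16:23981338-23981476, minus strand: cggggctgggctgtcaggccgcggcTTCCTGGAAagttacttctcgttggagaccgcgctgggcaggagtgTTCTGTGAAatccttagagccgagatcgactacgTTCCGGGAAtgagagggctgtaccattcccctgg
Socs3, chr11:117969487-117969545, minus strand: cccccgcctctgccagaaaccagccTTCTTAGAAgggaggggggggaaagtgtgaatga
Igfals, chr17:24878148-24878206, plus strand: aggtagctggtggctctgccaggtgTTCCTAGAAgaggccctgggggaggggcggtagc

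Among all 32851 windows in the table, 8.3% held at least 1 such motif and 0.457% held at least 2. The window of Cish held a pair, at bases 1 to 9 and 12 to 20 counted from the start site, and 1 of the windows of Bcl6 held 3. The other window of Bcl6 held 1, as did 2 of the 3 windows of Igfals. These matches describe the letters of the windows and say nothing of binding in these livers.

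Per length of exon, the axis was led by its receptor and its products. Group means of Ghr lay between 42.6 and 54.6 CPM per kilobase, those of Igf1 between 39.8 and 52.4, and those of Igfals between 28.1 and 62.5. Stat5b stood at 9.69 to 15.7 CPM per kilobase and Stat5a at 1.97 to 3.55. The group means of the inhibitors Cish (1.46 to 5.91), Socs2 (1.85 to 4.99) and Socs3 (1.73 to 4.57) all lay below those of Stat5b. In the deposited FPKM this order did not hold, so it depends on the measure of level. Socs2 lay above Stat5b in every old vehicle male, as in male 2 (38.2 against 10.5) and male 3 (13.1 against 12.8). Every other group held mice with Socs2 above Stat5b, such as old HDM201 female 1 (31.6 against 16.2), and mice with it below. Cish lay above Stat5b in some vehicle males, such as young vehicle male 1 (18.2 against 8.21), and below it in others. Cux2 had the widest span, from 0.0788 CPM per kilobase in old HDM201 males to 15.3 in old HDM201 females.

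**Figure D1:**
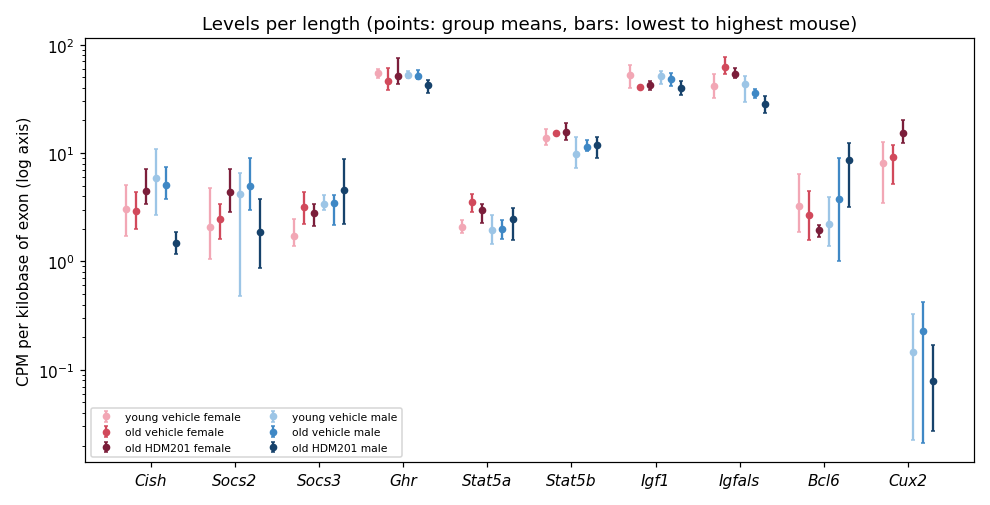
Level of each of the 10 genes in CPM per kilobase of exon (log axis), with a point for each group mean and a bar from the lowest to the highest mouse. Ghr, Igf1 and Igfals sit above 20 in every group, the feedback inhibitors lie lower, and Cux2 splits by sex.

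Cish encodes an SH2-domain inhibitor that STAT5 induces and that dampens cytokine receptors. Its level was 47.2, 32.5, 27.1 and 24.1 CPM in the 4 old vehicle males with counts. In the 5 old HDM201 males it was 7.51, 9.68, 9.81, 11.9 and 8.03 CPM. Every treated male lay below every vehicle male of either age, and the treated males varied least of the 6 groups, with a coefficient of variation of 18.6%. The means were 32.7 ± 10.3 (SD, n = 4) and 9.40 ± 1.74 CPM (SD, n = 5), a log2 fold change of -1.79 (SE 0.20), and between -1.92 and -1.56 with any 1 mouse left out. This is the difference that chose the gene, so nothing is read from its size. As background, old HDM201 and old vehicle males did not overlap in 4.03% of 14109 genes. A false discovery rate (FDR) under 0.05 in edgeR's fit was reached by 0.00709% of these genes (1 gene). That count was 0 without HDM201 male 1, 3 or 5 and 13 without vehicle male 3.

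In the females the values of Cish ran the other way. Old vehicle females had 12.8, 17.8, 16.8 and 28.2 CPM, and old HDM201 females had 45.6, 25.5, 26.7, 21.9 and 22.1 CPM. The groups overlapped, because vehicle female 4 lay above all treated females but female 1. The log2 difference of 0.56 (SE 0.25, 95% interval -0.03 to 1.15) did not pass edgeR's test (FDR = 0.207). The difference between the sexes in the response was -2.36 (SE 0.35) on the log2 scale, given without a test because it contains the male contrast. In that fit 0.107% of 14974 genes were called.

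The order of the group means of Cish was young vehicle males (37.9 CPM), old vehicle males (32.7), old HDM201 females (28.4), young vehicle females (19.7), old vehicle females (18.9) and old HDM201 males (9.40). Each group overlapped the next in this order except the last pair. The young mice spread most: young males had 70.5, 17.0, 18.4 and 45.8 CPM, and young females had 32.3, 11, 28.6, 11.4 and 14.9 CPM. The lowest young females, at 11 and 11.4 CPM, lay below the highest treated male at 11.9 CPM. Cish differed by age neither in females (log2 -0.03, 95% interval -0.80 to 0.74, edgeR FDR = 0.958) nor in males (-0.20, -1.25 to 0.84, FDR = 0.82) beyond the spread between mice, and these intervals hold sizable changes in both directions. It was higher in males than in females by 0.96 in young mice (SE 0.44, FDR = 0.181) and by 0.79 in old vehicle mice (SE 0.26, FDR = 0.0619), neither of which passed. The second difference passed by DESeq2 (FDR = 0.016), without the filter on low counts (0.0249) and without old vehicle female 4 (0.0261).

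**Figure D2:**
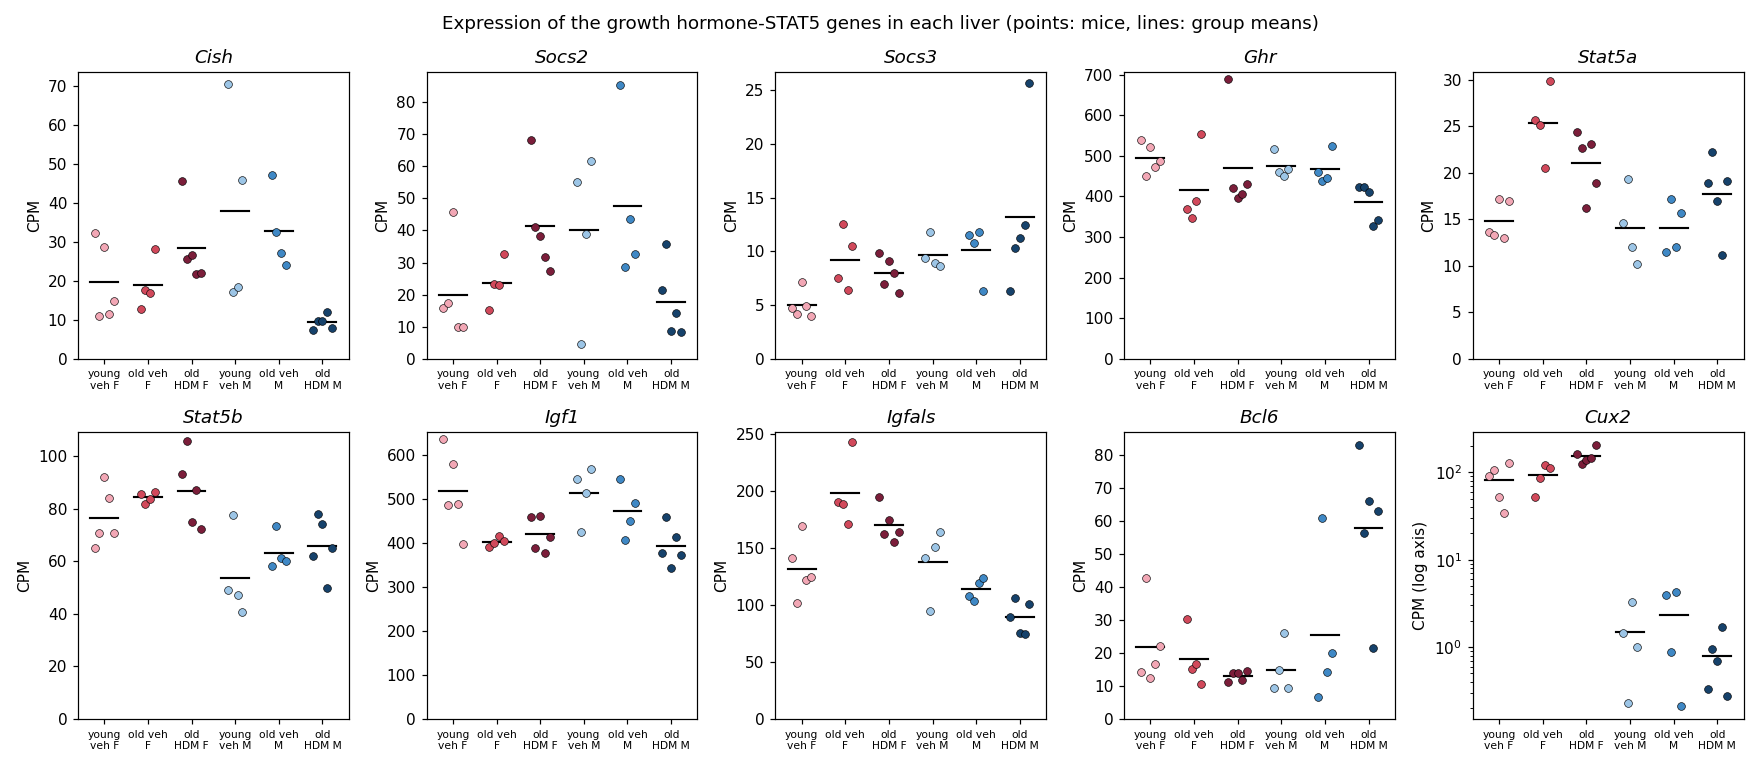
CPM of the 10 genes in each of the 27 mice, with a point per mouse, a line at each group mean, and a log axis for Cux2 only. Cish lies between 7.51 and 11.9 CPM in old HDM201 males and at 24.1 CPM or above in old vehicle males.

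Socs2 encodes the inhibitor whose loss gives gigantism in mice, through growth hormone. It was at 85.4, 28.6, 43.5 and 32.6 CPM in old vehicle males and at 21.3, 35.7, 8.71, 14.2 and 8.25 CPM in old HDM201 males. A single treated male, male 2, reached into the vehicle range. The log2 difference was -1.42 (SE 0.45). In old females it was at 15.3, 23.2, 22.9 and 32.6 CPM with vehicle and at 68.1, 41.1, 38.2, 31.8 and 27.3 CPM with HDM201, a difference of 0.79 (SE 0.26) that did not pass (edgeR FDR = 0.0989). Like Cish, its mean was thus lower in treated males and higher in treated females, with a difference of -2.21 (SE 0.57) between these responses. Without the filter on low counts the female difference passed (FDR = 0.0273).

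Socs3, an inhibitor induced through STAT3 as well as STAT5, did not share this pattern. Old vehicle males had 11.5, 10.8, 11.8 and 6.32 CPM, and old HDM201 males had 6.34, 10.3, 11.2, 12.4 and 25.6 CPM. The groups overlapped, and the difference of 0.40 (SE 0.35) was 0.0027 without HDM201 male 5. In old females the difference was -0.23 (SE 0.20, 95% interval -0.70 to 0.24, edgeR FDR = 0.537).

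The receptor gene Ghr was at 461, 439, 444 and 524 CPM in old vehicle males and at 422, 424, 412, 327 and 343 CPM in old HDM201 males. The groups did not overlap, which held for 4.03% of all genes tested there, and the difference was -0.27 (SE 0.10) on counts but 0.05 in FPKM over all mice. In old females Ghr differed by 0.16 (SE 0.18, 95% interval -0.27 to 0.58, edgeR FDR = 0.663), and that value turned to -0.02 without HDM201 female 1, which had 689 CPM.

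The transcription factors stayed closer together. Stat5a was at 11.5, 17.2, 12.1 and 15.7 CPM in old vehicle males and at 18.9, 22.3, 17.0, 11.1 and 19.1 CPM in old HDM201 males, with a log2 difference of 0.33 (SE 0.19). Stat5b differed by 0.07 (SE 0.12) in males and by 0.02 (SE 0.10, 95% interval -0.22 to 0.26) in females. The female difference of Stat5a was -0.29 (SE 0.13, edgeR FDR = 0.223). Stat5a overlaps Stat3 on the opposite strand, and the use of strand in counting is not given in the sources used here.

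Of the secreted products, Igf1 was at 547, 408, 451 and 492 CPM in old vehicle males and at 379, 460, 343, 414 and 373 CPM in old HDM201 males. The ranges overlapped, with a log2 difference of -0.26 (SE 0.11) on counts and 0.05 in FPKM over all mice. Igfals, the subunit that holds IGF1 in the circulating ternary complex, was at 108, 103, 119 and 124 CPM with vehicle and 89.1, 106, 75.5, 74.1 and 101 CPM with HDM201, a difference of -0.34 (SE 0.12). In old females Igf1 differed by 0.04 (SE 0.07, 95% interval -0.14 to 0.21) and Igfals by -0.24 (SE 0.10, edgeR FDR = 0.188).

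Bcl6 encodes a repressor that occupies many STAT5 sites and that growth hormone lowers. It was at 6.78, 60.9, 14.2 and 20.1 CPM in old vehicle males and at 83.1, 56.2, 66.2, 21.5 and 62.9 CPM in old HDM201 males. Vehicle male 3 was as high as the treated mice and HDM201 male 4 as low as the vehicle mice, so the groups overlapped. The difference was 1.20 (SE 0.56) and 2.09 without vehicle male 3. Old females had 30.2, 15.3, 16.5 and 10.6 CPM with vehicle and 11.2, 13.9, 13.9, 11.9 and 14.5 CPM with HDM201, a difference of -0.49 (SE 0.23, edgeR FDR = 0.242). The male and female responses differed by 1.68 (SE 0.65), the opposite sign to those of Cish and Socs2.

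Cux2 encodes a repressor that is expressed in female and hardly in male mouse liver. Old vehicle females had 52.7, 85.1, 120 and 112 CPM, and old HDM201 females had 160, 125, 138, 147 and 204 CPM. Every treated female lay above every vehicle female, which held for 10.2% of all genes tested, and the difference was 0.72 (SE 0.21). It did not pass edgeR's test (FDR = 0.0704), although it did by DESeq2 (FDR = 0.0106), without the filter on low counts (0.014) and without old vehicle female 3 (0.0426). In old males all values were low, between 0.212 and 4.25 CPM with vehicle and between 0.275 and 1.71 with HDM201, resting on 4 to 75 and 5 to 32 counts per mouse.

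Across the 10 genes, HDM201 in old females gave 0 called by edgeR against a background of 5.25% of 14445 genes (758 called). Of these 10 genes, 4 had an unadjusted p under 0.05 in edgeR's test (Cish, Socs2, Igfals and Cux2), DESeq2 called 1 and limma on FPKM called 0. The share of all genes with such a p was not counted. The 5.25% is for an FDR under 0.05, so it is no background for these 4 and nothing is read from them. In old males 6 of the 10 were lower and 4 higher in sign, where 52.8% of all genes were higher. The median log2 fold change was -0.26 beside 0.01 over all genes. These values include Cish, which was chosen on this contrast, so nothing is read from them. Macrophage and Kupffer cell markers fell in the treated females, with 7 of 8 called and summed levels of 186 to 311 CPM against 310 to 623 CPM. Cholangiocyte markers were higher in sign in 5 of 5, with 2 called, and summed to 84.0 to 150.1 CPM against 49.6 to 71.2 CPM without overlap. In the treated males T and NK cell markers summed to 5.08 to 21.2 CPM against 1.86 to 8.21 CPM with vehicle. In the same males 8 of 8 hepatocyte markers were lower in sign (median log2 fold change -0.16), with sums of 77100 to 152400 against 111600 to 159700 CPM. All 6 endothelial, all 6 stellate and all 5 cholangiocyte markers were higher in sign there, with medians of 0.26, 0.38 and 0.55, and the sums of each list overlapped between the groups. The part of any of these marker lists in the values above was not tested.

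**Figure D3:**
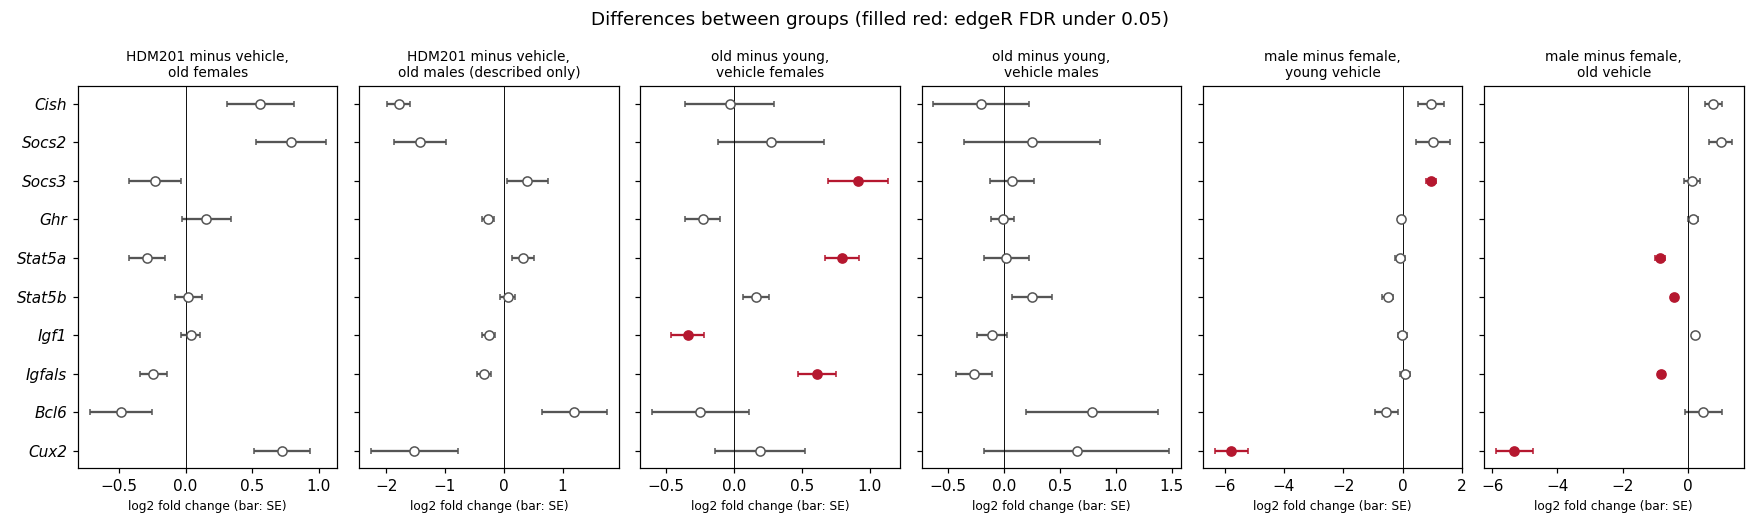
Log2 fold changes of the 10 genes with their standard errors in 6 comparisons (each panel has its own scale), where filled red points passed edgeR's test at an FDR under 0.05 and the old male HDM201 panel carries no test. Cish and Socs2 lie right of 0 in old females and left of it in old males.

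Further genes of the pathway were read from lists. Of 27 other genes of growth hormone receptor signalling, 3 fell with HDM201 in old females and 0 rose, where 5.25% of all genes were called. They included Hnf4a, a hepatocyte transcription factor that acts with STAT5 on sex-biased genes (log2 -0.27, SE 0.06, edgeR FDR = 0.032), and Ptpn1, a phosphatase of JAK2 (-0.40, SE 0.10, FDR = 0.0377). Of 11 tested genes of the other IGF axis, 0 were called. In old males the signalling list had a median of 0.08 and the IGF list one of 0.21.

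Liver genes that growth hormone makes sex-biased were followed as its targets. In old males 17 of 19 tested male-biased genes were lower with HDM201 in sign, with a median log2 fold change of -0.58 beside 0.01 over all genes, and none was called where 0.00709% of genes were. Female-biased genes were also mostly lower in these males, 10 of 15 tested in sign, with a median of -0.26. In old females 6 of 13 tested male-biased genes were higher and 7 lower in sign, with a median of -0.11. Of these, 1 was called, lower, where 5.25% of all genes were called. In old females 18 of 24 female-biased genes were higher in sign, with a median of 0.30 beside 0.00 over all genes. The test called 1 of the 24, a share near the 5.25% of all genes. It was Abcd2, a peroxisomal fatty acid transporter gene (0.76, SE 0.12, edgeR FDR = 0.0096). Among the IL-6 and STAT3 response genes, 14 of 16 were higher in sign in treated old males (median 0.57), and 0 were called. Over all genes 52.8% were higher there. Old vehicle males, the reference of that contrast, were themselves lower than young males in 15 of 16 in sign (median -0.66, 0 called). Over all genes 47.7% were higher in that age comparison. In treated old females 1 of 16 passed, again near 5.25%, the acute-phase gene Orm2, which fell by 1.08 (edgeR FDR = 0.0257). Of 12 fasting and feeding genes, 2 rose in treated old females, beside 5.25% of all genes called, among them Cpt1a, the gatekeeper of mitochondrial fatty acid oxidation (0.70, SE 0.14, FDR = 0.0198). The part of feeding state in the values of Cish and Socs2 was not tested.

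The age comparison asked how the axis differs between old and young vehicle mice, with the old vehicle mice shared with the comparisons above. In females 4 of the 10 genes were called, 3 higher and 1 lower in old mice, against a background of 31.8% of 14233 genes (4530 called), 16.8% higher and 15% lower. Stat5a was at 25.7, 25.2, 20.5 and 29.9 CPM in old and at 13.6, 13.3, 17.2, 13.0 and 17.0 CPM in young females. The groups did not overlap, which held for 25.9% of all genes tested, and Stat5a was higher in old females by 0.80 (SE 0.12, edgeR FDR = 0.000679). Igfals was at 190, 188, 171 and 243 CPM in old and at 141, 102, 169, 122 and 124 CPM in young females, again without overlap (0.61, SE 0.14, FDR = 0.00557). Socs3 was at 7.48, 12.5, 6.36 and 10.5 CPM in old and at 4.73, 4.15, 7.18, 4.89 and 4.02 CPM in young females, and was higher by 0.91 (SE 0.22, FDR = 0.0072) with young female 3 inside the old range.

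Igf1 went the other way in females. It was at 392, 402, 416 and 406 CPM in old and at 638, 488, 580, 489 and 397 CPM in young females, a difference of -0.34 (SE 0.12, FDR = 0.0472). That call was lost in 7 of the 9 fits that left out 1 mouse, where the FDR ran from 0.0108 to 0.11, and by limma on FPKM (FDR = 0.287). Ghr (-0.23, SE 0.13, FDR = 0.193) passed only without old vehicle female 4 (FDR = 0.00994). Socs2 (0.27, SE 0.39, FDR = 0.628) passed only without young vehicle female 3 (FDR = 0.0193), whose 45.6 CPM stood above the other young females at 9.95 to 17.4 CPM.

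In males 0 of the 10 genes were called with age by edgeR, against 3.69% of 13755 genes (507 called). None had an unadjusted p under 0.05, and DESeq2 and limma on FPKM called 0. The log2 differences ran from -0.27 for Igfals to 0.79 for Bcl6 (95% interval -0.65 to 2.23). The age response differed between the sexes for Igfals by -0.89 (SE 0.23, edgeR FDR = 0.037), in a test where 3.92% of 14721 genes were called. This call was lost in 13 of 17 fits that left out 1 mouse, with FDR from 0.0145 to 0.0851. Stat5a (-0.79, SE 0.25, FDR = 0.0744) and Socs3 (-0.85, SE 0.32, FDR = 0.128) did not pass, although Stat5a did by DESeq2 (FDR = 0.0385) and without the filter (0.0467).

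The wider lists also moved with age in females. Of the 24 female-biased genes, 22 were called, 14 higher and 8 lower in old mice. The sulfotransferase gene Sult2a2 rose from 41.9 to 509 CPM (log2 3.62, SE 0.30, FDR = 1.25e-05), while Sult3a1 fell from 127 to 8.05 CPM (-3.96, SE 0.41, FDR = 5.6e-05). Of 14 tested male-biased genes, 9 were lower and 0 higher. They included the organic anion transporter gene Slco1a1, at 3.08 CPM in old and 61.1 CPM in young females (-4.28, SE 0.30, FDR = 4.82e-06), and Cyp2d9, at 7.83 and 61.3 CPM (-2.94, SE 0.22, FDR = 5.07e-06). Both counts exceed the background of 31.8%.

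The counts for females in this paragraph stand beside 16.8% of all genes called higher and 15% called lower in old females. Of the 27 signalling genes, 12 were higher and 1 lower, among them Stat3 (0.70, SE 0.09, FDR = 0.00016) and Sirpa, a receptor of myeloid cells and a binding partner of the phosphatase SHP2 (1.41, SE 0.15, FDR = 7.07e-05). Of 16 IL-6 and STAT3 response genes, 9 were higher and 0 lower, including Fgl1 (1.31, SE 0.14, FDR = 5.74e-05) and Lcn2 (1.5, SE 0.17, FDR = 8.72e-05). Of 8 macrophage and Kupffer cell markers 7 were higher, with summed levels of 310 to 623 CPM against 204 to 306 CPM in young females. All 5 B cell markers were higher (8.25 to 22.2 against 2.01 to 4.71 CPM), as were 3 of 3 tested neutrophil markers (5.32 to 35.5 against 1.86 to 3.97 CPM for the list of 5), and 3 of 8 hepatocyte markers were lower. The part of these cells in the values of Stat5a, Socs3 and Stat3 was not tested. In old males Sirpa (1.27, SE 0.26, FDR = 0.0291), Igfbp2 (1.33, SE 0.26, FDR = 0.0254) and Igfbp7 (0.74, SE 0.11, FDR = 0.00808) were higher. The latter pair encode IGF binding proteins. Of the 16 IL-6 and STAT3 response genes, 15 were lower in sign in old than in young males (median -0.66), and 0 were called. Their age response differed between the sexes in 7 of 16 by edgeR, each lower in males, where 3.92% of all genes were called.

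The sex comparison was made in vehicle mice of each age. In young mice 2 of the 10 genes were called where 10.5% of 13875 genes were (1462 called). Cux2 was at 90.1, 105, 52.3, 34.5 and 129 CPM in young females and at 1.45, 0.229, 3.27 and 0.996 CPM in young males, a log2 difference, male minus female, of -5.78 (SE 0.56, edgeR FDR = 4.91e-05). Socs3 was at 9.37, 11.8, 8.94 and 8.69 CPM in young males, above every young female (0.97, SE 0.18, FDR = 0.0056), a call that limma on FPKM did not make (FDR = 0.247 over all mice). The sexes did not overlap in Cux2 and Socs3, and in 12.8% of all genes tested. Of 16 IL-6 and STAT3 response genes, 8 were higher and 0 lower in young males, with Hp at 5983 against 2009 CPM (1.58, SE 0.28, FDR = 0.0045). Stat5b differed by -0.50 (SE 0.17, FDR = 0.0805), which passed by DESeq2 (FDR = 0.0409), without the filter on low counts (0.0359), with all 6 groups in one fit (0.0211) and without young vehicle male 2 (0.00497).

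In old vehicle mice 4 of the 10 genes were called, all lower in males, where 18% of 14088 genes were called and 8.4% were lower. Cux2 differed by -5.32 (SE 0.57, edgeR FDR = 0.000398). Igfals was at 103 to 124 CPM in old males and 171 to 243 CPM in old females (-0.81, SE 0.11, FDR = 0.00183). Stat5a, at 11.5 to 17.2 and 20.5 to 29.9 CPM, differed by -0.85 (SE 0.15, FDR = 0.00559). Stat5b, at 58.2 to 73.5 and 81.6 to 86.3 CPM, differed by -0.42 (SE 0.08, FDR = 0.00914). The call of Stat5b was lost with all 6 groups in one fit (FDR = 0.064) and that of Stat5a by limma on FPKM + 1 (0.0501). In all 4 genes the sexes did not overlap, which held for 23.1% of all genes tested. Socs2 was higher in old males by 1.01 (SE 0.34, FDR = 0.066), which passed without old vehicle male 3 (FDR = 0.0396) and without the filter on low counts (0.0228). Bcl6 showed no sex difference that passed at either age. Male minus female, it differed by -0.54 in young mice (SE 0.38, edgeR FDR = 0.388) and by 0.49 in old vehicle mice (SE 0.57, edgeR FDR = 0.587).

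The sex-biased target lists gave the background of these differences. Of 18 tested male-biased genes 17 were higher in young males and of 24 female-biased genes 20 were lower, and in old mice these counts were 17 of 17 and 20 of 24. Mup20, a urinary pheromone protein gene, was at 1938 CPM in young males and 32.8 CPM in young females (5.89, SE 0.22, FDR = 1.36e-08). Egfr was at 588 CPM in old males and 61.7 CPM in old females (3.25, SE 0.19, FDR = 5.85e-06). Prlr, the prolactin receptor gene, was at 88.2 CPM in old males and 398 CPM in old females (-2.17, SE 0.36, FDR = 0.00402). The lists were drawn from genes known to be sex-biased, so these counts check the labels and are not findings.

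Within groups, Cish varied with some genes of the axis and not with others. Each value on the log2(CPM + 1) scale was taken relative to its group mean over the 27 mice, which removes the differences between groups. Both values of a pair come from the same library of a mouse, and the correlations are descriptions that carry no p. Pearson's r with Cish was 0.63 for Socs2 (Spearman's rho 0.52), 0.61 for Igf1 (0.60), 0.49 for Igfals (0.39) and 0.49 for Ghr (0.39). For Bcl6 it was -0.59 (-0.64). For Socs3 (0.22), Cux2 (0.22), Stat5a (-0.08) and Stat5b (-0.22) it lay within the range that most genes take. Leaving out the 2 mice farthest from the median of Cish gave 0.66 for Socs2, 0.55 for Igf1 and -0.58 for Bcl6. The signs were the same in the 14 females and the 13 males for these genes, and r for Igfals was 0.84 in females and 0.20 in males, a difference that was not tested.

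Over all 12772 genes with a mean of at least 1 CPM, r with Cish lay between -0.40 and 0.40 from the 5th to the 95th percentile. Socs2 ranked 37th and Igf1 51st from the top, and Bcl6 stood at place 12705. The genes most like Cish were Rgs3, a regulator of G-protein signalling (r = 0.88), Foxa2, a hepatocyte transcription factor (0.81), 1700018L02Rik (0.77), Gm42796 (0.76) and Sart1 (0.75). Those least like it were Cenpc1 (-0.76), Gm14325 (-0.72), Sytl4 (-0.71), Slc22a15 (-0.71) and Svil (-0.70). Among the other pairs of the 10 genes, Stat5a with Stat5b (0.75) and Socs2 with Igf1 (0.71) were the highest.

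**Figure D4:**
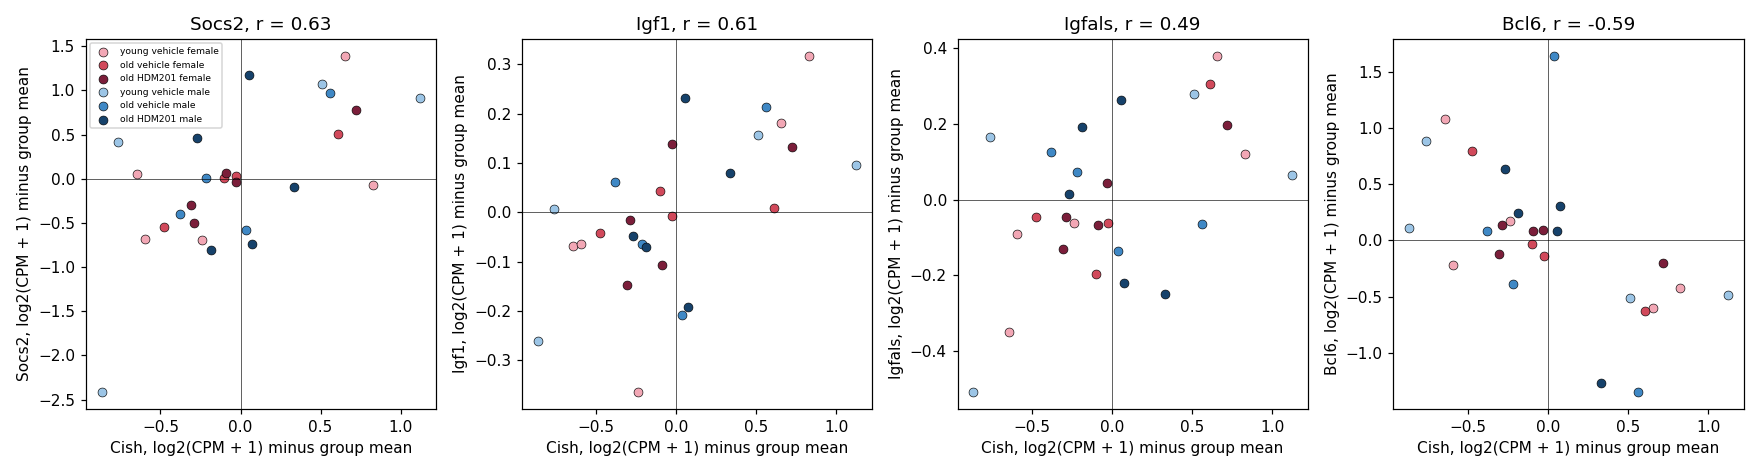
Each of the 27 mice as a point, with Cish on the horizontal and Socs2, Igf1, Igfals or Bcl6 on the vertical axis, both as log2(CPM + 1) minus the group mean. The points rise for Socs2 (r = 0.63), Igf1 (0.61) and Igfals (0.49) and fall for Bcl6 (-0.59).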

How the data were processed

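Per the methods, STAR alignments to mm10 were counted on genes by the authors with HTSeq, and FPKM came from Cufflinks. Versions are not given in the sources used here. The deposited counts are whole numbers without normalization. The deposited FPKM values, summing to 690769 to 6010510 per mouse, served as an alternative, with empty cells read as 0. The 10 genes and the lists were chosen with earlier results of these data known.

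Comparisons were made with edgeR 4.0.16 under R 4.3.3, each from a fit to the groups it compares. Genes passed filterByExpr at 10 counts (15 in total), libraries were scaled by TMM, and the quasi-likelihood test was adjusted by Benjamini-Hochberg over all genes, with calls at an FDR under 0.05. The script was tested on simulated data. The design expected 5 mice in each male group, and the counts held 4 in each vehicle group. CPM are scaled to all gene counts of a mouse times its TMM factor, taken over all mice with counts. The 95% intervals use the standard error and the residual degrees of freedom. Each library is 1 mouse, and no pair within a group agreed within sampling noise (chi-square per degree of freedom at least 12.8). Alternatives were RLE size factors, DESeq2 1.42.0, no filter, a single fit of all 6 groups, a block for the replicate number, an FDR of 0.01, each mouse left out, and limma 3.58.1 on log2(FPKM + 1) and log2(FPKM + 0.1). Limma on the mice with counts only was chosen after seeing the data. Named list genes are at most 3 called genes per list and comparison, with the smallest FDR and no overlap. Genes like Cish are the 5 highest and 5 lowest by r. Coordinates are of GRCm38. Levels per length use the union of GENCODE exons, retained introns included.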

Additional observations from a re-analysis of the deposited data

Results flagged for a closer look

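In 4 of 60 gene and group combinations 1 mouse stood apart from the rest of its group, where chance gives about 1 in 20. Old HDM201 female 1 had 45.6 CPM of Cish against 21.9 to 26.7 in the other treated females, and 689 CPM of Ghr against 395 to 432. Young vehicle female 3 had 45.6 CPM of Socs2 against 9.95 to 17.4 in the other young females, and 7.18 CPM of Socs3 against 4.02 to 4.89. The response of Igfals to age differed between the sexes by an interaction test (-0.89 on the log2 scale, SE 0.23, edgeR FDR = 0.037), where 3.92% of all genes were called. That call was lost in 13 of 17 fits that left out 1 mouse and with the replicate block (edgeR FDR = 0.0689).

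The mice without counts also gave values above those of all vehicle mice with counts, in FPKM. Young vehicle male 5 had 34.4 FPKM of Socs3, where the vehicle mice with counts had 1.49 to 5.12, and 15 of 16 IL-6 and STAT3 response genes in it were above every other young male. In the same mouse 3796 of 16760 expressed genes were above every other young male. Old vehicle male 1 had 23.8 FPKM of Cish, against at most 18.2 in vehicle mice with counts, and 9.16 FPKM of Socs3. In this mouse 10153 of 17655 expressed genes were above every other old vehicle male, while Ghr (120 against 177 to 199 FPKM), Igf1 (248.8 against 256 to 335), Igfals (43.3 against 46.1 to 52.7) and Socs2 (12.05 against 13.1 to 38.2) were below every other, as was Cux2 (0.311 against 0.340 to 1.04). Of the 16 IL-6 and STAT3 response genes 6 were above and 5 below all others. The cause was not tested.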

How the results depend on the processing

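Over all results and alternatives, 1196 values stayed the same, 33 lost a call, 21 gained one, 34 moved and 62 changed sign. For tested log2 differences, the same means an unchanged direction and side of the threshold. For counts of the 10 genes called it means a change within a set ratio. For the contrasts given without a test it means an unchanged sign and a shift under the pooled SD within groups. Cish in old males stayed between -1.92 and -1.34 over all alternatives on the log2 scale (-1.34 by limma on FPKM + 1 with only the mice that have counts, where its difference from the females was -1.77). Of the 10 genes, HDM201 in old females had 1 called by DESeq2, 2 without the filter on low counts, and 0 to 1 with a mouse left out. The sex difference in young mice had 1 called by limma on FPKM at either pseudocount and with only the mice that have counts. The interaction of sex and age had 2 by DESeq2, 2 without the filter, 0 at an FDR of 0.01, and 0 to 1 with a mouse left out. Over all genes, HDM201 in old males had 1 called by edgeR and 169 by DESeq2, HDM201 in old females 758 and 1329 (73 by limma on FPKM + 0.1), and age in males 507 and, with all 6 groups in one fit, 2007. The interaction of sex and HDM201 had 16 and 664, and that of sex and age 577 and 1173. The sex difference in young mice had 1462, 2483 with all 6 groups in one fit and 501 by limma on FPKM + 0.1. With 1 mouse left out, these counts over all genes ran from 0 (without HDM201 male 1, 3 or 5) to 13 (without vehicle male 3) for HDM201 in old males, from 185 (without vehicle female 2) to 956 (without vehicle female 3) for HDM201 in old females, and from 144 (without old vehicle male 4) to 579 for age in males. They ran from 0 to 314 (without old vehicle female 3) for sex and HDM201, and from 207 (without old vehicle female 4) to 1193 (without young vehicle male 1) for sex and age. The sex differences ran from 764 (without young vehicle male 4) to 1864 in young and from 1490 (without old vehicle female 4) to 2505 in old mice, and age in females from 3502 to 4494. The cause was not tested.

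Of the 15 pairs of groups, in 0 were all same-numbered mice correlated above 0.1, and in 0 did every mouse correlate best with its own number. Between old vehicle females and old vehicle males 2 of 3 mice did so. Both checks ask for every mouse of a pair of groups, so they cannot exclude that some same-numbered mice were paired. With the replicate block, the sex difference in old mice had 2 of the 10 genes called and the interaction of sex and age 0, and Cish with age in males turned to 0.53. All genes called then numbered 742 and 183, 29 with age in males and 0 for the interaction of sex and HDM201.

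Other changes of sign were all of values that no test had called. By limma on log2(FPKM + 1), FPKM + 0.1 and FPKM + 1 with only the mice that have counts, in that order, Igf1 with HDM201 in old males became 0.050, 0.050 and 0.022. With age in females Cish became 0.20, 0.25 and 0.20 and Ghr 0.050, 0.050 and 0.050. With age in males Cish became 0.32, 0.37 and 0.0088, Socs3 -0.38, -0.41 and -0.022, and Ghr 0.068, 0.069 and 0.0064. In old mice the sex difference of Ghr became -0.32, -0.33 and -0.20 and that of Igf1 -0.13, -0.13 and -0.10. By the first and second of these, Ghr with HDM201 in old males became 0.048 and 0.048, and in young mice the sex difference of Stat5a became 0.065 and 0.067 and that of Igfals -0.046 and -0.047. By the third alone, the sex difference of Socs3 in old mice became -0.046. Without the filter, the sex difference of Igf1 in young mice became 0.0024.

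With 1 mouse left out, HDM201 in old females gave -0.025 to 0.33 for Ghr and -0.059 to 0.078 for Stat5b. Age in females gave -0.29 to 0.21 for Cish, -0.60 to 0.15 for Bcl6 and -0.013 to 0.42 for Cux2. Age in males gave -0.45 to 0.27 for Cish, -0.20 to 0.54 for Socs2, -0.016 to 0.25 for Socs3, -0.057 to 0.031 for Ghr, -0.10 to 0.20 for Stat5a and -0.11 to 1.20 for Bcl6. The sex difference in young mice gave -0.093 to 0.078 for Igf1, -0.26 to 0.044 for Stat5a and -0.033 to 0.22 for Igfals, and in old mice -0.019 to 0.31 for Socs3 and -0.41 to 0.84 for Bcl6. Cux2 in males rests on at most 75 counts a mouse, which limits its fold changes there.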
